A study of Drosophila melanogaster with 36 samples.

Results

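The step from early to mid night was examined in the LNv clock neurons of female Drosophila melanogaster. The 6 libraries of ZT18 and ZT20 were set against the 6 libraries of ZT14 and ZT16, which together are 12 of the 36 libraries of the series. ZT is zeitgeber time, the hour on the daily light schedule of the flies. Libraries were chosen by their labelled time only, and no measured value entered that choice.

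All flies were labelled wild type in a w1118 background and carried membrane GFP under the Pdf-Gal4 driver. Each window held 2 libraries from flies on food of 1.5x sucrose and yeast at 25 °C (HC25), 2 from flies on food of 0.5x sucrose and yeast at 25 °C (LC25) and 2 from flies on food of 1.5x sucrose and yeast at 18 °C (HC18). Every library stood for 1 time and 1 condition, so condition was a blocking factor in each test. The Pdf driver marks large and small LNv neurons alike, and the sort did not part them. Nothing in the labels ties a library to its own pool of animals, so each p-value reflects the spread among these 12 libraries alone, and that spread may be technical. It also holds the change between the 2 times pooled in each window, because no time and condition had a second library.

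LNv neurons set the pace of daily behaviour in flies and signal to other clock neurons through the neuropeptide PDF. In their molecular clock the activators CLK and CYC switch on per, tim, vri and Pdp1 around dusk, and the proteins PER and TIM accumulate through the night and then shut that activation off. The electrical activity of LNv neurons and the branching of their terminals also follow a daily cycle, with the neurons most active around dawn.

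Values are TPM, transcript abundance per transcript length scaled to the same total in each library, so the depth of the libraries is unknown. TPM are shares of a library, and in sorted bulk samples fewer cells of a type and less RNA per cell cannot be told apart. Pdf, the marker of LNv neurons, took 19.9% to 25.9% of TPM at ZT18 and ZT20 (median 21.6%) and 20.3% to 29.6% at ZT14 and ZT16 (median 22.3%). The glial regulator repo stayed at or below 0.782 TPM in the later window and 1.14 TPM in the earlier one, beside 134 to 208 TPM and 94.9 to 162 TPM of the neuronal gene elav. Several libraries stood apart in marker sums. In the later window LC25 at ZT18 held 1163 TPM of 13 photoreceptor markers, against 160 to 207 TPM in the other libraries of the window. HC18 at ZT20 held 56.4 TPM of muscle markers (16.4 to 22.1 TPM in the others) and HC25 at ZT20 held 796 TPM of markers of other clock neurons (474 to 577 TPM). In the earlier window HC25 at ZT16 held 118 TPM of fat body markers (10.1 to 29.1 TPM), and HC18 at ZT14 had the highest Pdf share. HC18 at ZT16 held 1347 TPM of Ilp2, a marker of the insulin-producing cells, against at most 7.04 TPM in the other 11 libraries. Of 17 shares and marker sums compared between the windows by an exact permutation of windows within conditions, the sums of Kenyon cell and monoaminergic markers reached 0.00926, the smallest unadjusted p that the design allows (Benjamini-Hochberg adjusted p = 0.0787). At least 4 of the 17 would have to reach it for any to pass at 0.05, so the adjusted values do not show that the windows were alike in these measures. The Kenyon cell sum includes sNPF (means of 1059 TPM in the later window and 250 TPM in the earlier one). The monoaminergic sum includes Tbh (878 TPM and 471 TPM). Each sum thus leans on 1 gene and does not measure the share of a cell type.

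At ZT18 and ZT20, 107 of 8649 genes tested were higher than at ZT14 and ZT16 (1.24%) and 77 were lower (0.89%), at a limma adjusted p below 0.05, or 2.13% in either direction. The changes were of moderate size, with a median of 0.82 on the log2 scale among the 184 genes called and a smallest of 0.32. In 34 of the higher genes the fold was at least 2, and in 35 of the lower genes it was at most 0.5, on the scale of log2(TPM + 1). All 184 genes moved in the same direction in HC25, LC25 and HC18, which their choice by a fit of the same 12 libraries favours. The median log2 change of all genes was -0.01, and 1107 genes (12.8%) had an unadjusted p below 0.05. Across the 8649 genes, 76 lay above all 6 earlier libraries in all 6 later ones (0.879%) and 36 lay below all of them (0.416%), and 84 of these 112 genes were also called.

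The number of calls depended on single libraries. Of the 184 genes called, 65 (42 higher and 23 lower) passed in each of the 12 fits that left out 1 library. With the HC18 library of ZT14 or that of ZT20 left out, 74 genes were called. Without the LC25 library of ZT14 77 were called, without HC25 of ZT14 86, without LC25 of ZT20 88, without HC25 of ZT20 91 and without HC25 of ZT18 107. Removal of a ZT16 library gave more calls in each condition: 229 for HC25, 260 for LC25 and 230 for HC18, the one with Ilp2. Removal of the LC25 library of ZT18, the one with photoreceptor transcripts, left 202 genes, and removal of HC18 of ZT18 left 137. Whether the marker transcripts of these libraries bear on the number of calls was not tested.

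sNPF, the gene of the short neuropeptide F precursor, had the largest rise among the named genes. It lay between 515 and 1407 TPM at ZT18 and ZT20 (median 1213 TPM), against 41.1 to 479 TPM at ZT14 and ZT16 (median 213 TPM). The windows did not overlap in any condition, the HC18 libraries were the lowest at each of the 4 times, and at ZT14 all 3 conditions were far below ZT16. The change was 2.44 ± 0.435 on the log2 scale (SE, n = 6 against 6), a 5.44-fold rise (limma adjusted p = 0.0131). sNPF is also expressed by Kenyon cells of the mushroom body, and the summed level of 12 Kenyon cell markers, sNPF and Eip93F among them, was 2033 ± 328 TPM in the later window and 1291 ± 90.4 TPM in the earlier one (SD, n = 6 each; exact permutation p = 0.00926, adjusted p = 0.0787). Within that sum sNPF itself averaged 1059 TPM and 250 TPM, so the sum cannot be read apart from sNPF. Of the 11 tested markers of that list 2 were higher and 1 was lower, and ey, a defining gene of Kenyon cells, stayed between 1.39 and 4.57 TPM at ZT18 and ZT20 and between 0.342 and 1.78 TPM at ZT14 and ZT16. The part of other cells in the sNPF result was not tested.

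nrv1 encodes a beta subunit of the sodium-potassium pump. Its level was 159 to 298 TPM at ZT18 and ZT20 (median 231 TPM), against 23.7 to 79.1 TPM at ZT14 and ZT16 (median 37.3 TPM). Every later library stood above every earlier one, with the sharpest rise between ZT16 and ZT18 in HC25 and LC25. The log2 change was 2.32 ± 0.231 (SE), a 5.0-fold rise, with an adjusted p of 0.000153. vex rose by 2.22 ± 0.215 on the log2 scale, to 63.1 to 150.5 TPM (median 105 TPM) at ZT18 and ZT20 against 13.1 to 36.3 TPM (median 20.9 TPM) at ZT14 and ZT16 (adjusted p = 0.000153). Its HC18 library of ZT16 was the highest of the earlier window, and the windows did not overlap.

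Ac13E, an adenylyl cyclase that makes cyclic AMP, had 85.1 to 166 TPM at ZT18 and ZT20 (median 131 TPM) and 30.2 to 60.2 TPM at ZT14 and ZT16 (median 40.7 TPM). Its level went up at each interval in each condition, and the 2.97-fold rise (log2 change 1.57 ± 0.173 SE, adjusted p = 0.000433) held in all 12 fits with 1 library left out. CG43902 had 142 to 320.1 TPM in the later window (median 205 TPM) and a narrow 68.3 to 87.3 TPM in the earlier one (median 78.4 TPM). Its log2 change was 1.44 ± 0.142 (SE, adjusted p = 0.000153), and the rise was largest in HC25 (log2 change 1.90) and smallest in HC18 (1.05). CG17777 had 831 to 1770.5 TPM at ZT18 and ZT20 (median 1356 TPM) against 269 to 643 TPM at ZT14 and ZT16 (median 405 TPM), a rise of 1.60 ± 0.22 (SE, adjusted p = 0.00286). In the BDGP6.54 annotation sNPF and nrv1 lie on chromosome arm 2L, and vex, Ac13E, CG43902 and CG17777 on chromosome X.

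The remaining 9 leading higher genes rose by 1.30 to 1.73 on the log2 scale. klg encodes an immunoglobulin-type adhesion protein and rose 3.31-fold (52.2 to 106 TPM, median 74.4 TPM, against 12.1 to 38 TPM, median 24.6 TPM; adjusted p = 0.00709). Gclc, the catalytic subunit of the first enzyme of glutathione synthesis, rose 2.59-fold (61.7 to 99.2 TPM, median 70.8 TPM, against 13.1 to 48.5 TPM, median 30.3 TPM; adjusted p = 0.00826). Eip93F, an ecdysone-induced transcription factor, rose 2.55-fold (78.9 to 122 TPM, median 103.5 TPM, against 20.4 to 77.8 TPM, median 36.5 TPM; adjusted p = 0.00826). These windows did not overlap for any of the 3 genes. mAChR-B, a muscarinic acetylcholine receptor, rose 2.67-fold (adjusted p = 0.00826), but the HC18 library of ZT16, at 14 TPM, lay above the lowest later value of 11.1 TPM. CG6983, CG13230, c-cup, CG34155 and CG33958 made up the rest. Some calls are less firm: CG6983 lost its call without 2 of the 12 libraries (adjusted p of 0.053 without LC25 of ZT14), CG13230 without 4 (0.063 without HC18 of ZT14) and c-cup without 6 (0.085 without HC18 of ZT20). CG13230 overlaps CG13229 on the other strand, which was also called higher. klg overlaps CG6660 on its own strand. Overlaps are of whole gene spans, and whether reads of such pairs can be told apart was not tested.

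**Figure D1:**
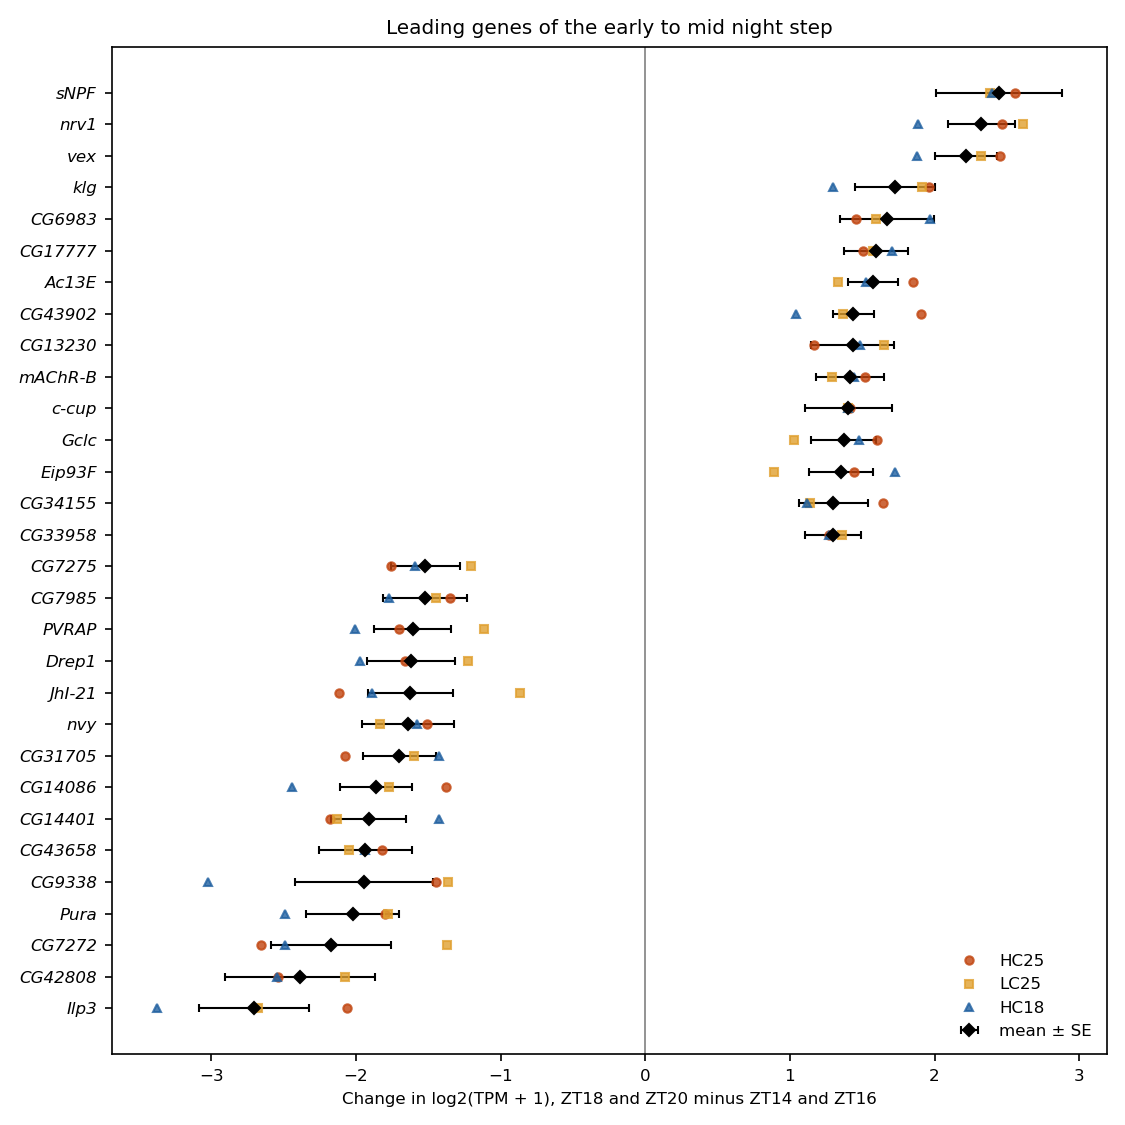
Change in log2(TPM + 1) at ZT18 and ZT20 minus ZT14 and ZT16 for the 15 called genes of largest rise and the 15 of largest fall with a mean of at least 10 TPM over the 12 libraries. Black diamonds and bars give the mean change and its SE over 12 libraries, and coloured symbols the change within HC25, LC25 and HC18; all symbols of a gene lie on one side of 0.

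Ilp3, an insulin-like peptide gene best known from the insulin-producing cells, had the largest fall. It measured 2.22 to 36.7 TPM at ZT18 and ZT20 (median 10.1 TPM) against 10.9 to 456 TPM at ZT14 and ZT16 (median 46.3 TPM). The HC18 library was the highest at each time, and the LC25 library of ZT16 fell within the range of the later window. The log2 change was -2.70 ± 0.381 (SE, adjusted p = 0.00307), and without the HC18 library of ZT16, which held 1347 TPM of Ilp2, it was -2.40 (adjusted p = 0.0027). In the other 11 libraries Ilp2 was at 0.424 to 7.04 TPM, while Ilp3 reached 133 TPM in HC18 at ZT14.

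Pura acts in the remodelling of LNv terminals. It fell to 10.4 to 32.6 TPM at ZT18 and ZT20 (median 16.9 TPM), against 42.0 to 137 TPM at ZT14 and ZT16 (median 86.9 TPM). Its level declined at each interval in each condition and the windows did not overlap (log2 change -2.02 ± 0.323 SE, adjusted p = 0.00709). Of the 29 tested genes of axon terminal remodelling it was the one called (3.45%, against 0.89% of all genes called lower). The 28 others included the adhesion gene Fas2, with a log2 change of 0.15 (adjusted p = 0.455), and the matrix protease gene Mmp1, with -0.41 (adjusted p = 0.462).

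JhI-21, an amino acid transporter subunit, had 10.3 to 31.4 TPM at ZT18 and ZT20 (median 21.3 TPM) and 22.5 to 182 TPM at ZT14 and ZT16 (median 57.9 TPM). The fall was -1.62 ± 0.295 (SE, adjusted p = 0.0135), the LC25 library of ZT16 overlapping the later window. CD98hc, the heavy chain with which such transporters pair, fell by 0.58 on the log2 scale (158 ± 29.7 TPM against 242 ± 76.6 TPM, SD, n = 6 each; adjusted p = 0.0195, up to 0.065 without the HC18 library of ZT20). LeuRS, which charges tRNA with leucine, fell to 0.606 times its earlier level (11.3 ± 2.1 TPM against 19.7 ± 5.72 TPM; adjusted p = 0.0307, up to 0.10 without the HC18 library of ZT14). It was the 1 called gene of 32 aminoacyl-tRNA synthetases (3.12%, against 0.89% of all genes called lower). CD98hc was chosen for mention after its value was seen.

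Among the other leading lower genes were PVRAP, an adaptor of the PVR receptor tyrosine kinase, nvy, a transcriptional co-repressor of the ETO family, and Drep1, a DNA fragmentation factor-related gene. PVRAP had 64.2 to 135 TPM at ZT18 and ZT20 (median 89.0 TPM) against 144 to 459 TPM at ZT14 and ZT16 (median 312 TPM; log2 change -1.61 ± 0.267 SE, adjusted p = 0.00826). nvy had 3.54 to 7.71 TPM against 10.4 to 37.9 TPM (adjusted p = 0.0147), and Drep1 10.9 to 18.9 TPM against 22.5 to 89.5 TPM (adjusted p = 0.0135). In all 3 genes the later window lay wholly below the earlier one. For nvy the adjusted p was 0.056 without the HC18 library of ZT14.

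CG43658, CG14086, CG31705, CG7272 and CG7275 also had windows that did not overlap. CG31705 was the most abundant of them, with 67.2 to 197 TPM at ZT18 and ZT20 against 229.7 to 639.9 TPM at ZT14 and ZT16 (medians 153 and 447 TPM; adjusted p = 0.00384). Overlapping windows were seen for CG42808, CG9338, CG14401 and CG7985. CG42808 lost its call without 7 of the 12 libraries (adjusted p of 0.087 without HC18 of ZT20) and CG9338 without 9 (0.13 without the same library), and CG9338 was high mainly in HC18 at ZT14, with 94.7 TPM. CG7985 lost its call in 1 fit (0.050 without HC18 of ZT14) and overlaps another gene on its own strand.

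Of the 8 core clock genes limma called tim, whose protein partners PER (12.5% called, against 0.89% of all genes called lower). It had 226 to 493 TPM at ZT18 and ZT20 (median 386 TPM) and 413 to 907 TPM at ZT14 and ZT16 (median 607 TPM). All 3 conditions were highest at ZT14, and the windows overlapped through the ZT16 libraries. The fall was -0.79 ± 0.183 (SE, adjusted p = 0.0372), and it lost its call without 8 of the 12 libraries, with an adjusted p of 0.11 without the HC18 library of ZT20.

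The other clock transcripts did not pass. Pdp1, an activator of Clk transcription, averaged 1342 ± 469 TPM at ZT18 and ZT20 and 1836 ± 658 TPM at ZT14 and ZT16 (SD, n = 6 each; log2 change -0.46, adjusted p = 0.117). Clk, the activator itself, averaged 26.5 ± 7.17 TPM against 16.3 ± 7.33 TPM (log2 change 0.75, adjusted p = 0.224). vri, a repressor of Clk transcription, had a log2 change of -0.29 (adjusted p = 0.453), and per of 0.22 (46.3 ± 14.2 TPM against 39.0 ± 10.9 TPM, adjusted p = 0.609). The values for cyc, cwo and the photoreceptor gene cry were 0.20, 0.18 and 0.24 (adjusted p = 0.686, 0.70 and 0.608). The list median was 0.19, opposite in sign to the change of its called member.

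Among genes that act on clock proteins limma called tyf and Pka-C1. tyf, which promotes translation of per, fell to 37.4 to 49.4 TPM at ZT18 and ZT20 (median 39.3 TPM), against 51.4 to 90.0 TPM at ZT14 and ZT16 (median 67.0 TPM). The windows did not overlap (log2 change -0.67 ± 0.143 SE, adjusted p = 0.0253, up to 0.079 without the HC25 library of ZT14), and tyf was the 1 called gene among 12 translation and output regulators (8.33%, against 0.89% of all genes called lower). Pka-C1, also lower, was the 1 called gene of 20 kinases and phosphatases (5%, against the same 0.89%). Of 14 genes of ubiquitin-dependent turnover the nearest was ctrip (adjusted p = 0.0504).

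**Figure D2:**
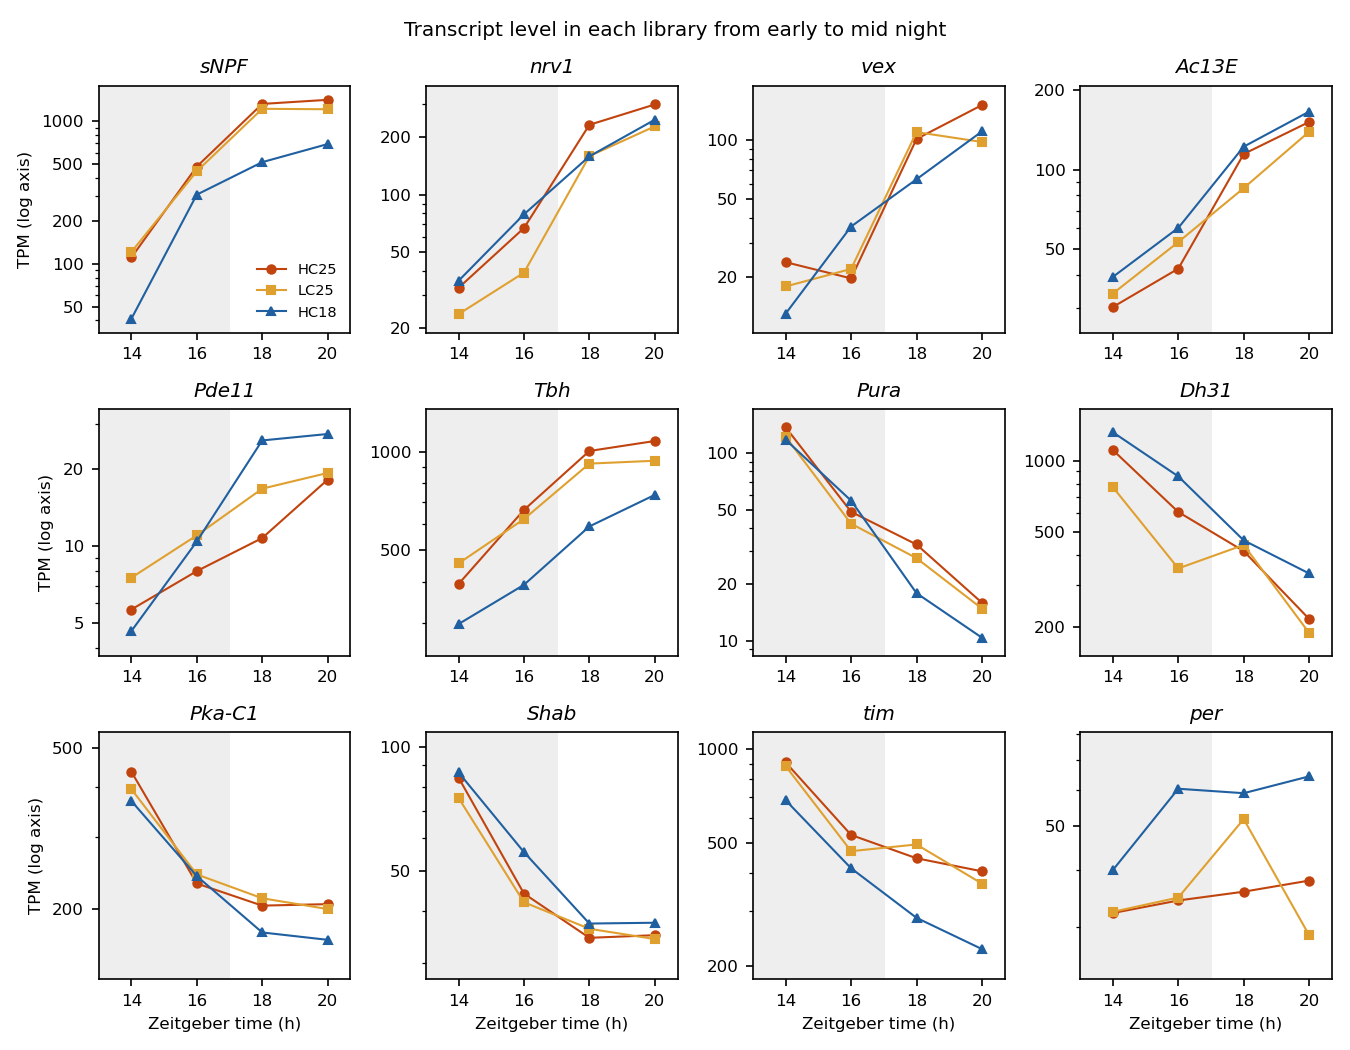
TPM of 12 genes (log axis, differing in range) at ZT14, ZT16, ZT18 and ZT20 in each of the 12 libraries, with lines joining the libraries of HC25, LC25 and HC18 and grey marking ZT14 and ZT16. sNPF, nrv1, vex, Ac13E, Pde11 and Tbh were higher in the white area, Pura, Dh31, Pka-C1, Shab and tim were lower, and per was not called.

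Pdf transcripts did not differ beyond their spread, with 224515 ± 25938 TPM at ZT18 and ZT20 and 233068 ± 33070 TPM at ZT14 and ZT16 (SD, n = 6 each; log2 change -0.05, adjusted p = 0.976). Of 17 tested neuropeptide genes of clock neurons sNPF rose and Dh31 fell (11.8% called, against 2.13% of all genes). Dh31, whose diuretic hormone 31 peptide can also act on the PDF receptor, had 188 to 462 TPM at ZT18 and ZT20 (median 375 TPM) against 352 to 1317 TPM at ZT14 and ZT16 (median 816 TPM). Its level was highest at ZT14 in every condition, and the LC25 library of ZT16 reached into the later range. The log2 change was -1.25 ± 0.259 (SE, adjusted p = 0.0217), with 6 of 12 calls lost when 1 library was left out (up to 0.073 without HC18 of ZT20). The gene span of Dh31 overlaps that of Bace on the same strand, and whether their reads can be told apart was not tested. Dh31 stands in the marker list of other clock neurons, whose 12 members summed to 474 to 796 TPM in the later window and 380 to 1448 TPM in the earlier one (exact permutation p = 0.0556, adjusted p = 0.157). Dh31 itself averaged 343 TPM and 836 TPM, within mean sums of 564 TPM and 924 TPM, so the sum cannot be read apart from Dh31. The part of other clock neurons in the fall of Dh31 was not tested.

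AstC, the allatostatin C gene, had a log2 change of 2.25 ± 0.589 (SE) but did not pass (adjusted p = 0.0607), its libraries spreading over 27.3 to 272 TPM at ZT18 and ZT20 and 4.45 to 76.3 TPM at ZT14 and ZT16. NPF changed by -0.17 (adjusted p = 0.818) and the transcription factor gene Fer2, needed in LNv neurons, by -0.53 (adjusted p = 0.166).

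Peptide receptors moved in both directions, with 2 higher and 2 lower of 26 tested (15.4% called, against 1.24% of all genes called higher and 0.89% called lower). CCHa1-R, the receptor of CCHamide-1, was low but rising: 3.29 to 20.3 TPM at ZT18 and ZT20 (median 6.99 TPM) against 1.09 to 5.02 TPM at ZT14 and ZT16 (median 2.04 TPM; log2 change 1.46 ± 0.275 SE, adjusted p = 0.0135). HC18 libraries were highest at ZT16, ZT18 and ZT20, and the windows overlapped. MsR1, a myosuppressin receptor, rose 1.62-fold (35.7 ± 7.66 TPM against 21.7 ± 4.84 TPM; adjusted p = 0.0444, up to 0.13 without HC18 of ZT20).

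Dh31-R, the receptor of diuretic hormone 31, fell to 34.6 to 75.7 TPM at ZT18 and ZT20 (median 64.3 TPM), against 84.3 to 150.2 TPM at ZT14 and ZT16 (median 115 TPM). The windows did not overlap and the fall was -0.91 ± 0.18 (SE, adjusted p = 0.0179, up to 0.061 without HC18 of ZT14). sNPF-R, the receptor of short neuropeptide F, fell to 0.569 times its earlier level (13.5 ± 3.24 TPM against 24.9 ± 7.31 TPM; adjusted p = 0.0279, up to 0.094 without HC18 of ZT20). Thus sNPF transcripts were higher and transcripts of its receptor lower in the later window, while Dh31 and Dh31-R were both lower. Pdfr, the PDF receptor, averaged 164 ± 31.9 TPM against 267 ± 155 TPM and did not pass (log2 change -0.54, adjusted p = 0.316).

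Cyclic AMP is the messenger through which several of these receptors act, and 2 of its 26 tested genes rose and 2 fell (15.4% called, against 2.13% of all genes called in either direction). Beside Ac13E, the phosphodiesterase gene Pde11 rose to 10.8 to 27.5 TPM at ZT18 and ZT20 (median 18.8 TPM), against 4.66 to 11 TPM at ZT14 and ZT16 (median 7.77 TPM; log2 change 1.22 ± 0.22 SE, adjusted p = 0.0135). A second phosphodiesterase gene, Pde6, fell to 0.575 times its earlier level (14.5 ± 2.79 TPM against 26.5 ± 7.28 TPM; adjusted p = 0.0372, up to 0.12 without HC18 of ZT14). Pka-C1, a catalytic subunit of protein kinase A, had 168 to 212 TPM at ZT18 and ZT20 (median 202 TPM) against 231 to 436 TPM at ZT14 and ZT16 (median 306 TPM). Most of its fall lay between ZT14 and ZT16, the windows did not overlap, and the change was -0.67 ± 0.158 (SE, adjusted p = 0.0396, up to 0.12 without HC18 of ZT14). The cyclase and both phosphodiesterases thus changed unequally, with a list median of 0.02.

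Receptors of amines and fast transmitters gave 3 higher and 0 lower of 38 tested (7.89% called, against 1.24% of all genes called higher; list median 0.11). Oamb, an octopamine receptor, rose 1.65-fold (25.9 to 58 TPM, median 44.7 TPM, against 19.3 to 31.4 TPM, median 24.8 TPM; adjusted p = 0.0135). nAChRalpha3, a nicotinic acetylcholine receptor subunit, rose 1.60-fold (50.7 to 85.4 TPM, median 59.2 TPM, against 28.9 to 71.7 TPM, median 37.5 TPM; adjusted p = 0.0135). HC18 libraries were the highest for nAChRalpha3 at each time, and the one of ZT16 overlapped the later window. The third was mAChR-B, and the serotonin receptor 5-HT2A came close (log2 change 0.90, adjusted p = 0.0504).

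Tbh, the enzyme that makes octopamine from tyramine, rose 1.90-fold. It had 591 to 1077 TPM at ZT18 and ZT20 (median 928 TPM) and 298 to 664 TPM at ZT14 and ZT16 (median 425 TPM; log2 change 0.92 ± 0.132 SE, adjusted p = 0.00311). Within each condition both later libraries were above both earlier ones, and the HC18 libraries were the lowest at each time. The summed level of 11 markers of monoaminergic neurons, Tbh included, was 1063 ± 175 TPM in the later window and 751 ± 59.1 TPM in the earlier one (exact permutation p = 0.00926, adjusted p = 0.0787). Tbh itself averaged 878 TPM and 471 TPM, so the sum cannot be read apart from Tbh. Of the 10 tested members of that list Tbh alone was called. Tdc2, which makes the tyramine that Tbh uses, had 21.0 to 70.0 TPM at ZT18 and ZT20 and 46.5 to 199 TPM at ZT14 and ZT16, and the dopamine enzyme gene ple stayed at or below 1.15 and 1.99 TPM.

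Of 21 tested potassium channel genes 1 was called (4.76%, against 0.89% of all genes called lower). Shab, a delayed rectifier channel that repolarizes neurons, had a narrow 34.2 to 37.5 TPM at ZT18 and ZT20 (median 35.6 TPM), against 42.0 to 86.6 TPM at ZT14 and ZT16 (median 65.3 TPM). The windows did not overlap, and all conditions were highest at ZT14 (log2 change -0.78 ± 0.172 SE, adjusted p = 0.0295, up to 0.098 without HC18 of ZT14). Of 28 sodium, calcium, chloride and leak channel genes the nearest was ClC-a (adjusted p = 0.246). Of 37 genes of peptide processing and release, 2 rose (5.41%, against 1.24% of all genes called higher). cpx, whose complexin protein clamps and promotes vesicle fusion, rose 1.40-fold (602 to 817 TPM, median 697 TPM, against 406 to 570.3 TPM, median 489 TPM; adjusted p = 0.0135), and the convertase gene Fur2 rose 1.53-fold (adjusted p = 0.0322, up to 0.11 without HC18 of ZT20), both without overlap between the windows.

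Adhesion genes of the dpr, DIP, beat and side families, surface proteins that pair neurons in wiring, gave 1 higher and 2 lower of 50 tested (6%, against 2.13% of all genes called in either direction). DIP-beta had 68.7 to 160 TPM at ZT18 and ZT20 (median 105 TPM) against 82.2 to 468 TPM at ZT14 and ZT16 (median 270.3 TPM; log2 change -1.18, adjusted p = 0.0322). DIP-gamma fell to 0.489 times its earlier level (adjusted p = 0.0353), and dpr15 rose 1.52-fold (adjusted p = 0.0272). Calls of these genes were lost in 8 or 9 of the 12 fits without 1 library, with adjusted p up to 0.11.

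Nuclear genes of the respiratory chain gave the most calls by number among 36 gene lists of unequal size, while the shares called were higher for peptide receptors and cyclic AMP genes (15.4% each). Of 78 tested members of this list, the inner-membrane machinery that makes ATP, 11 were higher and 0 lower (14.1%, against 1.24% of all genes called higher). The list median was 0.31 on the log2 scale, against -0.01 over all genes, and 72 of the 78 had a positive change, as had 48.9% of all genes. The median stayed between 0.27 and 0.31 and all called members were higher after median ratio rescaling, quantile normalization and removal of Pdf and mitochondrial transcripts. The number called varied, with 0 called without the LC25 or the HC18 library of ZT14 or the HC18 library of ZT20, 3 without HC25 of ZT18 or LC25 of ZT20, 5 without HC25 of ZT14 or of ZT20, and 19 without HC18 of ZT16. In those fits 71 to 74 of the 78 changes remained positive.

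By symbol, 34 of these genes start with ND-, for complex I (3 called, 33 positive, median 0.28). Another 12 start with COX, for cytochrome c oxidase (2 called, 11 positive, median 0.32). ATP synthase had 14, with symbols of ATPsyn or blw (4 called, 12 positive, median 0.42). The 18 members with other symbols, cype and levy among them, were not sorted by complex. Cyt-c-p, the electron carrier cytochrome c, had 1307 to 2352 TPM at ZT18 and ZT20 (median 2029 TPM) against 951 to 1740 TPM at ZT14 and ZT16 (median 1085 TPM; log2 change 0.69 ± 0.151 SE, adjusted p = 0.0279, up to 0.094 without HC18 of ZT20). ATPsynC, the proton-carrying ring subunit of ATP synthase, had 1049 to 1577 TPM against 798 to 991 TPM (medians 1302 and 887 TPM), and its windows did not overlap (log2 change 0.54 ± 0.107 SE, adjusted p = 0.0179). RFeSP, the iron-sulphur subunit of complex III, had 173 to 270.4 TPM against 126 to 197 TPM (log2 change 0.59 ± 0.12 SE, adjusted p = 0.0202), and the 197 TPM belonged to the HC18 library of ZT16. The other 8 were ND-B18, ND-B17, ND-B15, COX8, COX6B, blw, ATPsynD and ATPsynE, with changes of 0.41 to 0.58. All but ATPsynC, RFeSP, ND-B18 and COX8 were chosen for mention after their values were seen. Transcripts encoded in the mitochondrial genome took 13.9% ± 4.39 of TPM in the later window and 12.9% ± 2.79 in the earlier one (SD, n = 6 each; exact permutation p = 0.463, adjusted p = 0.721).

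Some other mitochondrial genes were called and are named here after their values were seen; no list of citric acid cycle enzymes was tested. Mdh2, mitochondrial malate dehydrogenase, had 343 to 526 TPM at ZT18 and ZT20 (median 374 TPM) against 201 to 307 TPM at ZT14 and ZT16 (median 255 TPM), without overlap (log2 change 0.68, adjusted p = 0.0135). Idh3a, a subunit of isocitrate dehydrogenase, rose 1.52-fold, also without overlap (adjusted p = 0.0105). The aconitase gene mAcon1 (log2 change 0.43, adjusted p = 0.044) and the pyruvate dehydrogenase gene Pdhb (0.51, adjusted p = 0.0444) rose less, and both calls were lost in most fits without 1 library (up to 0.13). SdhA, SdhB, SdhC and SdhD, subunits of the enzyme shared by that cycle and the respiratory chain, were not called (adjusted p = 0.414, 0.0509, 0.425 and 0.346). Hsp60A, the mitochondrial chaperonin, rose 1.55-fold and kept its call in all 12 such fits (160 to 217 TPM, median 188 TPM, against 108 to 176 TPM, median 114 TPM; adjusted p = 0.0135). It was the 1 called gene of 38 chaperones and co-chaperones (2.63%, against 1.24% of all genes called higher), and 24 of the 38 changes were negative. Among 15 glycolysis genes PyK, pyruvate kinase, had a log2 change of 0.70 (adjusted p = 0.0605), and the smallest adjusted p was 0.0566, for Gpdh1.

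Ribosomal protein genes had small changes, and limma called 1 gene in each of 2 lists. Of 73 mitochondrial ribosomal protein genes 65 had a positive change (median 0.18) and mRpL36 was called (1.37%; log2 change 0.60, adjusted p = 0.033, up to 0.10 without HC18 of ZT14). Of 83 cytosolic ribosomal protein genes 71 had a positive change (median 0.16, or 0.08 with 59 positive after quantile normalization) and RpL13A was called (1.2%; 0.48, adjusted p = 0.0261, up to 0.083 without HC18 of ZT14). Both shares lie near the 1.24% of all genes called higher. Other lists of protein synthesis had negative medians, with 14 of 37 translation initiation factors (median -0.02) and 13 of 32 aminoacyl-tRNA synthetases (median -0.08) positive. Cytosolic ribosomal protein transcripts took 13.3% ± 2.57 of TPM at ZT18 and ZT20 and 12.1% ± 1.83 at ZT14 and ZT16 (SD, n = 6 each; exact permutation p = 0.167, adjusted p = 0.405).

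Antioxidant genes gave 2 higher of 35 (5.71%, against 1.24% of all genes called higher), Gclc and the peroxiredoxin gene Prx5 (log2 change 0.50, adjusted p = 0.0381, up to 0.11 without HC18 of ZT14). Sam-S, which makes the methyl donor S-adenosylmethionine, rose 1.42-fold (178 ± 19.6 TPM against 126 ± 21.9 TPM; adjusted p = 0.0202, up to 0.075 without HC18 of ZT20) and was the 1 called gene of 16 in the one-carbon list (6.25%).

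Of 35 genes of the endoplasmic reticulum 2 were called lower and 0 higher (5.71%, against 0.89% of all genes called lower). The list median was -0.16, and 28 of the 35 changes were negative, as were 51.1% of those of all genes. Hsc70-3, the reticulum chaperone BiP, had 458 to 502 TPM at ZT18 and ZT20 (median 480 TPM) and 568 to 634 TPM at ZT14 and ZT16 (median 600 TPM). Its windows were narrow and did not overlap, although the fall was small (log2 change -0.32 ± 0.0753 SE, adjusted p = 0.0409, up to 0.13 without HC18 of ZT20). Sec61gamma, a subunit of the translocon, fell to 0.701 times its earlier level (164 ± 17.5 TPM against 237 ± 49.3 TPM; adjusted p = 0.0374, up to 0.12 without HC18 of ZT14).

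**Figure D3:**
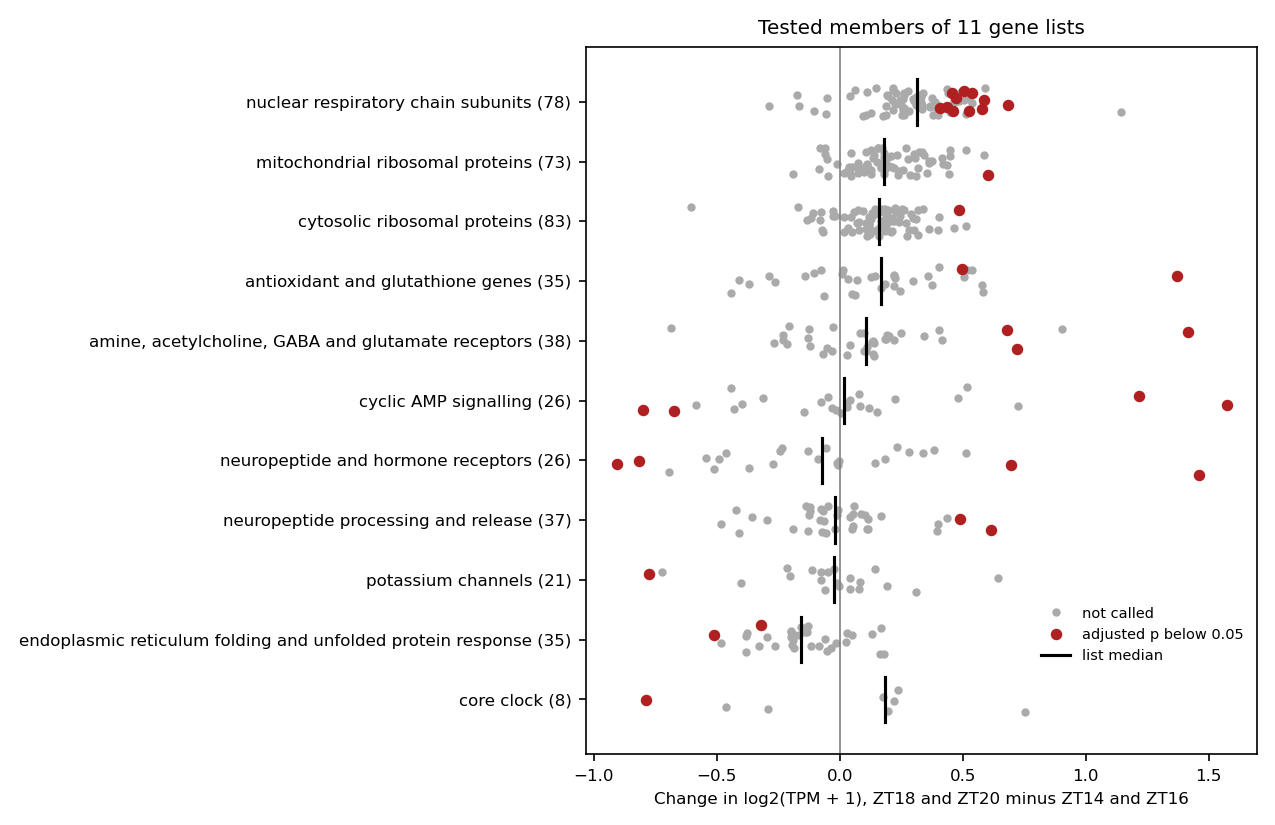
Change in log2(TPM + 1) at ZT18 and ZT20 minus ZT14 and ZT16 for each tested member of 11 gene lists, with the number tested in brackets; red points were called at an adjusted p below 0.05, grey points were not, and black bars are list medians. Respiratory chain members lie mostly right of 0 (72 of 78) and endoplasmic reticulum members mostly left of it (28 of 35).

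Single calls came from other lists. HDAC4, a histone deacetylase that shuttles between cytoplasm and nucleus, rose 1.64-fold without overlap (107 to 147 TPM against 57.8 to 97.8 TPM; adjusted p = 0.0135), the 1 called gene of 40 of transcription and chromatin (2.5%, against 1.24% of all genes called higher). Of 33 splicing-related genes 6.06% were called, against 2.13% of all genes in either direction. Among them fne, an ELAV-family RNA-binding protein, rose 1.41-fold (adjusted p = 0.0192) and bru1 fell to 0.699 times its earlier level (adjusted p = 0.0322), each losing the call in some fits without 1 library (up to 0.065 for fne without HC18 of ZT20 and 0.092 for bru1 without HC25 of ZT14). Rab32, a GTPase of lysosome-related organelles, fell to 0.495 times its earlier level without overlap (12 to 21.1 TPM against 22.2 to 42.7 TPM; adjusted p = 0.0135), and VhaAC45, an accessory subunit of the vacuolar proton pump, fell to 0.733 times its earlier level (adjusted p = 0.0347, up to 0.10 without HC25 of ZT20). Each was the 1 called gene of its list, of 28 Rab GTPases (3.57%) and 20 vacuolar ATPase genes (5%). Of all genes 0.89% were called lower. limma called 0 members at an adjusted p below 0.05 in 12 lists of 281 members, 36 of which had an unadjusted p below 0.05 (12.8%, the same share as of all genes). These lists were activity-regulated genes (5 of 19 at an unadjusted p below 0.05), core autophagy (0 of 22), glycolysis (4 of 15), insulin and TOR signalling (2 of 30), lipid metabolism (5 of 21), nuclear receptors (2 of 15), proteasome subunits (0 of 35), neuronal identity factors (6 of 34), translation initiation factors (4 of 37), trehalose and glucose supply (3 of 11), clock protein turnover (2 of 14) and sodium, calcium, chloride and leak channels (3 of 28).

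The calls of single transcripts were far fewer than those of genes. Of 14167 transcripts tested, 6 were higher (0.0424%) and 1 was lower (0.00706%), all of genes also called in that direction. The higher ones belonged to Ac13E, CG43902, nrv1, vex, CG32264 and sm, and the lower one to PRL-1. CG32264, sm and PRL-1 were likewise named after their values were seen. The called Ac13E transcript averaged 91.6 ± 20.3 TPM at ZT18 and ZT20 and 26.4 ± 8.95 TPM at ZT14 and ZT16 (SD, n = 6 each; log2 change 1.79, adjusted p = 0.0223). A second Ac13E transcript averaged 38.1 ± 11.6 TPM against 16.8 ± 4.15 TPM and was not called.

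No gene was called for a change that differed between HC25, LC25 and HC18 (0% of 8649 by limma's F test of the window by condition terms; 403 genes had an unadjusted p below 0.05). The smallest adjusted p was 0.166, for CG32811, whose log2 change was 2.06 in HC25, -2.15 in LC25 and 0.76 in HC18. The next genes were coil, Cyp4g1, PyK and mt:ND6, with adjusted p from 0.648 to 0.973. PyK changed by 0.81 in HC25, 1.35 in LC25 and -0.06 in HC18. These values do not show that food or temperature left the step the same.

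Higher and lower genes differed in when they moved. Among the 107 higher genes the median step of the condition means was 0.28 on the log2 scale between ZT14 and ZT16, 0.53 between ZT16 and ZT18 and 0.07 between ZT18 and ZT20, and in 83 of them the middle interval held the largest of the 3 steps. Among the 77 lower genes the medians were -0.65, -0.50 and -0.30, and in 49 the first interval held the largest. The mean moved one way at all 3 intervals in 65 of the higher and 65 of the lower genes. These values come from the libraries that chose the genes and carry no test.

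Libraries of ZT16 were those nearest to the later window. For 50 of the 107 higher genes the HC18 library of ZT16 was the highest of the 6 earlier libraries, and for 48 of the 77 lower genes the LC25 library of ZT16 was the lowest. In the later window the HC18 library of ZT18 was the lowest for 41 of the higher genes and the highest for 24 of the lower ones.

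Seen against the whole day, most of the genes higher at ZT18 and ZT20 were still high towards dawn. Their highest mean among 6 windows of 2 times each lay at ZT22-24 for 59 of 107 and at ZT18-20 for 35, and their lowest at ZT14-16 for 55. The 77 lower genes had their highest mean at ZT14-16 for 32 and at ZT10-12 for 28, and their lowest at ZT18-20 for 27 and at ZT22-24 for 26. In the authors' deposited table of rhythms over all 36 libraries, which includes the 12 used here, 103 of the 107 higher genes were listed and 87 had an adjusted p below 0.05. The authors' deposited table put the peak phase of 52 of those 87 between ZT20 and ZT24 and of 19 between ZT16 and ZT20. Of the 77 lower genes 71 were listed in the authors' deposited table, 66 had an adjusted p below 0.05, and 37 of these had a phase between ZT12 and ZT16. The matching shares over all genes were not computed. The called genes were also chosen for a difference between times in libraries that the rhythm test used, so these counts are a description only.

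The steps on either side were fitted over all 36 libraries, and they share a window with the step described here. From ZT10-12 to ZT14-16, 109 genes were called higher (1.26%) and 135 lower (1.56%), and from ZT18-20 to ZT22-24, 36 were higher (0.416%) and 61 lower (0.705%). sNPF was already up in the step before, by 2.29 on the log2 scale (adjusted p = 0.00745), and changed by -0.35 in the step after (adjusted p = 0.882). CG14086 peaked between the steps, with 2.10 before (adjusted p = 0.000132), -1.86 in this step and -1.64 after (adjusted p = 0.00778). CG43902 turned round, with -2.38 before (adjusted p = 1.3e-09) and 1.44 in this step.

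CCHa1-R rose most after this step, by 3.65 from ZT18-20 to ZT22-24 (adjusted p = 8.9e-07), and CG42808 regained 3.09 (adjusted p = 0.0235) after its fall. Pura fell by a further 2.11 (adjusted p = 0.0104). The core clock's larger changes lay on either side: tim rose by 1.32 before (adjusted p = 0.00772) and fell by 1.43 after (adjusted p = 0.00881), vri fell by 3.62 after (adjusted p = 0.000107) and Clk rose by 1.77 after (adjusted p = 0.00806).

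**Figure D4:**
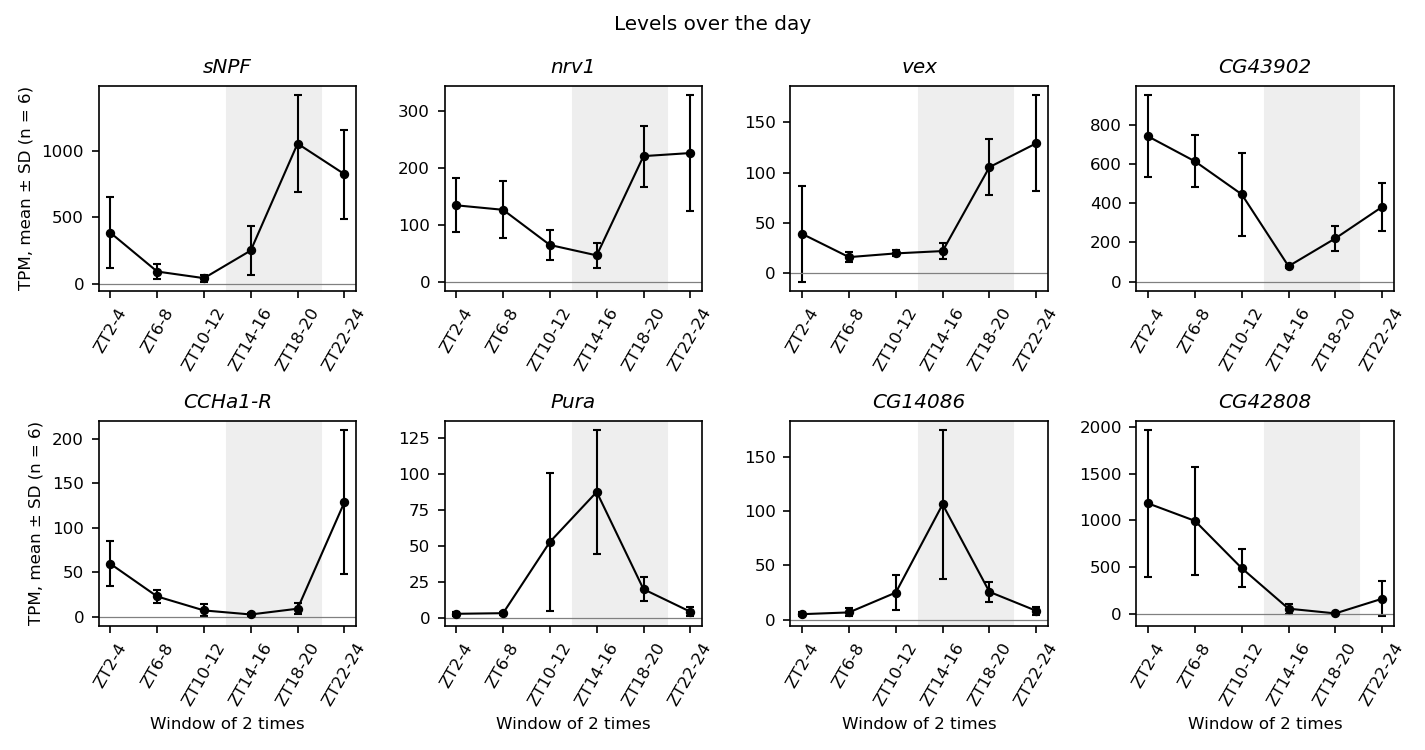
Mean TPM ± SD of 8 genes in 6 windows of 2 times over the day, 6 libraries each, with grey marking ZT14-16 and ZT18-20 (linear axes, differing in range; some SD bars reach below 0). Means of sNPF, nrv1, vex and CG43902 were higher at ZT18-20 than at ZT14-16, those of Pura, CG14086 and CG42808 lower, and that of CCHa1-R climbed mainly after ZT18-20.

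Reporter sequences were also in the table. Gal4 measured 142 ± 37.7 TPM at ZT18 and ZT20 and 92.3 ± 23.4 TPM at ZT14 and ZT16 (SD, n = 6 each), and GFP measured 20804 ± 3312 TPM against 25623 ± 4664 TPM. Both had an exact permutation p of 0.0278 and an adjusted p of 0.118 over 17 values, and they moved in opposite directions.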

How the data were processed

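RNA of sorted LNv neurons was isolated, amplified and sequenced by the authors, per the labels' protocols. The deposited values are TPM per transcript, made with kallisto per the submitters' processing notes (version and build: not given in the sources used here). The second deposited table gives the authors' adjusted p-values and peak phases (hours) of rhythms.

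TPM of transcripts were summed to genes through the Ensembl release 115 annotation (BDGP6.54): 30246 of 30485 transcripts matched. Genes with a mean of at least 1 TPM over 36 libraries were tested as log2(TPM + 1) with limma 3.58.1 in R 4.3.3 (trend, condition as a block) and Benjamini-Hochberg adjustment at 0.05, after the fit was tested on simulated data. Folds are 2 to the power of the log2 change, and understate changes of low genes. Depth is unknown and strand use is not stated, so overlapping genes are uncertain. Overlap was judged by whole gene spans and not by exons. Marker sums were compared by an exact two-sided permutation of windows within conditions.

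Named were the 15 genes of largest change in each direction (called, mean of at least 10 TPM, 1 direction in 3 conditions), 8 core clock genes and 6 LNv genes, up to 4 members of smallest p of each list, and 5 genes of smallest p for a difference between conditions. Other genes are marked in the text as chosen after their values were seen. The lists and members were chosen with earlier results of these data known. Promoter motifs were not searched.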

Additional observations from a re-analysis of the deposited data

Results flagged for a closer look

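Among 252 groups of 6 libraries looked at, 18 held a library far from its 5 neighbours by Dixon's criterion; chance marks about 1 in 20 groups. Their causes were not tested.

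At ZT18 and ZT20, photoreceptor markers summed to 1163 TPM in LC25 at ZT18 (160 to 207 TPM in the other libraries of the window), muscle markers to 56.4 TPM in HC18 at ZT20 (16.4 to 22.1 TPM), and markers of other clock neurons to 796 TPM in HC25 at ZT20 (474 to 577 TPM). HC25 at ZT20 was also low for CG7275, with 10.3 TPM (14.6 to 17.5 TPM), and for Dh31-R, with 34.6 TPM (57.2 to 75.7 TPM). COX6B was low in HC18 at ZT18, with 784 TPM (889 to 955 TPM), and COX8 high in HC18 at ZT20, with 672 TPM (432 to 507 TPM).

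At ZT14 and ZT16, 6 genes were high in HC18 at ZT16. These were Hsp60A with 176 TPM (108 to 117 TPM in the other libraries of the window), mAChR-B with 14 TPM (3.69 to 6.24 TPM), nAChRalpha3 with 71.7 TPM (28.9 to 40.7 TPM), Pdhb with 158 TPM (91.1 to 110.2 TPM), RFeSP with 197 TPM (126 to 133 TPM) and per with 60.4 TPM (32.1 to 40.0 TPM). Of these genes per was not called, and the others were called higher at ZT18 and ZT20. HC18 at ZT14 was high in the Pdf share, with 29.6% (20.3% to 23.8%), and in the sum of LNv markers, with 300519 TPM (208316 to 242271 TPM). The same library was low for ND-B17, with 113 TPM (132 to 141 TPM), and for sm, with 98.8 TPM (139 to 149 TPM). Fat body markers summed to 118 TPM in HC25 at ZT16 (10.1 to 29.1 TPM).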

How the results depend on the processing

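The called genes kept their direction, and the number of calls was not stable. All of the refits reuse libraries that chose these genes, which favours a kept direction. The fits with all 36 libraries, no condition term or robust eBayes leave the log2 changes as they were (median of all genes -0.00556 in each). In these fits the direction was therefore fixed in advance. Under 29 other settings the 184 called genes that were still tested kept their direction (168 were tested at a mean of at least 10 TPM and 183 after median ratio rescaling), while the 107 higher and 77 lower calls moved as follows. ZT18 against ZT16 alone gave 0 higher and 0 lower genes (350 at an unadjusted p below 0.05), and ZT20 against ZT14 gave 181 and 209 (46.4% higher, against 58.2%). A straight line over time gave 176 and 177, array weights 205 and 181, all 36 libraries 26 and 25, no low-value filter 64 and 32, and the fit with no condition term 44 lower genes. Without HC25 5 and 2 were called, without HC18 26 and 7, and without LC25 31 higher. With 1 library left out, 47 to 146 higher and 26 to 136 lower genes were called, and 0 to 2 genes differed between conditions.

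Genes with windows that did not overlap numbered 84 to 144 higher and 38 to 113 lower with 1 library left out, 552 and 242 for ZT18 against ZT16, 600 and 959 for ZT20 against ZT14, 240 and 137 without HC25, 220 and 291 without LC25, 295 and 172 without HC18, and 58 lower after median ratio rescaling. Fewer libraries make such separation easier.

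Transcripts called higher and lower numbered 3 and 0 with no filter, 32 and 13 at a mean of at least 10 TPM, 10 and 6 after median ratio rescaling, 11 and 7 after quantile normalization, 13 and 10 over all 36 libraries, 10 and 3 with no condition term, 74 and 90 for a straight line and 22 and 16 with array weights. Both were 0 for ZT18 against ZT16, ZT20 against ZT14, and without HC25 or LC25. The lower ones were 2 and 3 at pseudocounts of 0.1 and 5, 4 without Pdf and mitochondrial transcripts, 4 with robust eBayes and 4 without HC18. With 1 library left out, 0 to 16 were higher and 0 to 3 lower.

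The difference in Pdf share ran from -2.02 to 0.305 percentage points with 1 library left out, positive without HC18 of ZT14, and was 0.0292 without HC25. Uncalled genes that reversed were NPF (0.42) and vri (0.17) for ZT18 against ZT16 and Pdf (0.012) without HC25. The causes were not tested. The labels give no replicate numbers, so the main tests matched libraries of the windows by condition only, with no finer pairing.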
